A study of Mus musculus with 24 samples.

Results

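The genes described here encode the machinery of oxidative phosphorylation: subunits and assembly factors of complex I (Nduf genes), subunits of complex III (Uqcr), subunits and assembly factors of cytochrome c oxidase or complex IV (Cox followed by a digit, with Ndufa4 and Ndufa4l2), and subunits of ATP synthase or complex V (Atp5). Their chromatin was followed as ATAC-seq peaks, stretches of DNA that a transposase can cut and tag because they are open. A peak was taken when the authors' table of differential peaks names such a gene for it. A peak without an entry in that table was taken when the nearest transcription start site (TSS) that the table lists, on the same chromosome and within 50 kb of the peak's middle, belongs to such a gene. This gave 324 peaks at 70 genes among 144411 peaks in all, 148 named by the authors' table and 176 assigned by the nearest listed TSS. A peak whose middle lies within 1 kb of the TSS is called a promoter peak, and the others are called distal. There were 62 promoter peaks at 61 genes, with a pair at Cox16, and 262 distal peaks at 63 genes. RefSeq holds 101 protein-coding genes with names of this kind, of which 69 have a peak here. Of the 32 others, 23 have a peak of at least 1 kb at their RefSeq start that the rule does not reach, because the table lists no TSS for the gene. Distance alone does not tell which gene a distal peak acts on.

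The cells were macrophages grown from bone marrow of male C57BL/6 mice aged 8 to 10 weeks, in medium conditioned by L cells. Every mouse carried LysM-Cre+/+, a recombinase driven by a promoter active in myeloid cells. The genotypes were GRIP1wt/wt (WT) and GRIP1fl/fl (KO), in which Cre can remove floxed sequence of Ncoa2, the gene for GRIP1, a coactivator of nuclear receptors. Cells of both genotypes were treated with vehicle, with the synthetic glucocorticoid dexamethasone at 100 nM (Dex) or with interleukin 4 at 10 ng/ml (IL4), with 4 libraries in each of the 6 groups and 24 in all. The sample titles give 24 h for all groups, and the treatment entry of the vehicle libraries gives 25 h. Nothing in the labels ties a library to its own mouse or culture. The p-values therefore rest on the spread between these libraries, which may be technical. Cells were assayed in bulk, so fewer cells with an open site and a site less open in each cell cannot be told apart.

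In the inner mitochondrial membrane, complexes I and III and cytochrome c oxidase pass electrons from NADH to oxygen and pump protons, and ATP synthase uses the proton gradient to make ATP. The genes of these subunits in the nucleus are spread over many chromosomes, are used in nearly all cells and mostly have CpG-rich promoters. Factors known to bind promoters of this family include NRF1, the ETS factor GABPA, YY1 and the estrogen-related receptors (ERR). In macrophages, IL4 is known to bring about an alternatively activated state that leans on oxidative metabolism, and glucocorticoids bring about an anti-inflammatory state.

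Promoters from among those called with either agent are shown first. The RefSeq sequences run from 250 bases before to 50 bases after the TSS on the gene's own strand (build GRCm38.p6, the same assembly as mm10), and capitals mark the motifs listed after them. The first 3 are promoters whose peaks rose with Dex in WT cells (Ndufaf4, Ndufs3 and Atp5g3), and the other 3 are promoters whose peaks fell with IL4 (Ndufa7, Ndufs7 and Cox6a1).
Ndufaf4, chr4:24897833-24898132, + strand: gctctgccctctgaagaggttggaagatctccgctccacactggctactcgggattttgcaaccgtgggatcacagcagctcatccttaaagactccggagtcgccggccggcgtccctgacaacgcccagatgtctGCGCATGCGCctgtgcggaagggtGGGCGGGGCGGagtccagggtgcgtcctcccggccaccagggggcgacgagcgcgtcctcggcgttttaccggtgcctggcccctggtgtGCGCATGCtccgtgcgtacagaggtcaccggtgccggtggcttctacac
Ndufs3, chr2:90904672-90904971, - strand: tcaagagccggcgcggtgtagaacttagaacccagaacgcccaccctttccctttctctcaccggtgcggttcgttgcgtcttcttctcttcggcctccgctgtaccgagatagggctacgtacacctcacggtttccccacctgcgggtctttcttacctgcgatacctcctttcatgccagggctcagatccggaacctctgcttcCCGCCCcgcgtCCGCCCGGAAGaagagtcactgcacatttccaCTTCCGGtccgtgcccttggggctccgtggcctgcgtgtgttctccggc
Atp5g3, chr2:73911277-73911576, - strand: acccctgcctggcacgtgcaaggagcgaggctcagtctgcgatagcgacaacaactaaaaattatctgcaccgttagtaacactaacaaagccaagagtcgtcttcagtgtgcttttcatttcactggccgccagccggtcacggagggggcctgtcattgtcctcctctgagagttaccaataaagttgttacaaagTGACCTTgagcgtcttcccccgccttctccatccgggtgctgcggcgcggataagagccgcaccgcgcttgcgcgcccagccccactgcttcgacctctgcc
Ndufa7, chr17:33824322-33824621, + strand: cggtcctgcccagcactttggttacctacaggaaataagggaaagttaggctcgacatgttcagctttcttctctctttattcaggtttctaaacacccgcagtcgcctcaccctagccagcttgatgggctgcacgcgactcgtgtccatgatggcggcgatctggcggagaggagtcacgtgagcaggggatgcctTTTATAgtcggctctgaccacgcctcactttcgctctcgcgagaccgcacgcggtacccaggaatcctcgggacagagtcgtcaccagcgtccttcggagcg
Ndufs7, chr10:80249199-80249498, + strand: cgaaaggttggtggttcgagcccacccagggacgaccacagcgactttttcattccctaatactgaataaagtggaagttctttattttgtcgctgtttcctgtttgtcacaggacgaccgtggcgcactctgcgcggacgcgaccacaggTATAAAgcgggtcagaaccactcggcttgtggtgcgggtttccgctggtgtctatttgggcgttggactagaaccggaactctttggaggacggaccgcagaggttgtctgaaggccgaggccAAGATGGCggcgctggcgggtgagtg
Cox6a1, chr5:115348909-115349208, - strand: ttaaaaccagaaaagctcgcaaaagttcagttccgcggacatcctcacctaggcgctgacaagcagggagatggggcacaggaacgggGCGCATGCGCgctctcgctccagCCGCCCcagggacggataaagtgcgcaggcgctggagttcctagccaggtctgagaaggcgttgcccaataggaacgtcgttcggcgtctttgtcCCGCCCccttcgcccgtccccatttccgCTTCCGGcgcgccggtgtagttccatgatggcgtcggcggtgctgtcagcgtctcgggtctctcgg
The capitals mark NRF1 letters in Ndufaf4 and Cox6a1, ETS letters in Ndufs3 and Cox6a1, and SP/KLF letters in Ndufaf4, Ndufs3 and Cox6a1. They also mark ERR letters in Atp5g3, YY1 letters in Ndufs7, and the letters of the TATA box in Ndufa7 (on the opposite strand) and Ndufs7.

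A promoter sequence was found for 52 of the 61 genes with a promoter peak, and 7 motifs were searched in them on both strands. They were NRF1 (GCATGCGC), ETS (CCGGAAG), YY1 (AAGATGGC), SP/KLF (GGGCGG), the CCAAT box (CCAAT, not in capitals above), ERR (AAGGTCA) and the TATA box (TATAAA). As a description, the NRF1 letters stood in 8 promoters (15.4%), against 4.96% of 8697 genes that have a promoter peak and a sequence of the same length. The YY1 letters stood in 9 (17.3% against 4.02%), the ERR letters in 6 (11.5% against 3.05%) and the ETS letters in 12 (23.1% against 15.5%). The SP/KLF letters stood in 25 (48.1% against 63.1%), CCAAT in 23 (44.2% against 37.4%) and TATAAA in 4 (7.69% against 7.14%). Hits of different motifs can share bases, as the SP/KLF and ETS letters do in Ndufs3. A match is a string of letters and not a measured binding site. Of the 62 promoter peaks, 9 span the start of a neighbouring gene, and their reads cannot be split between the genes. Among them are Ndufs3 with Kbtbd4, Ndufa7 with Rps28, Ndufb3 with Fam126b, Ndufaf8 with Tepsin and Ndufa13 with Tssk6.

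The libraries held 5820149 (WT Dex replicate 2) to 21939330 counts in peaks, and no pair of them was identical. The tests ran on 130103 peaks, and 14308 with low counts were left out. All 62 promoter peaks and 235 of the 262 distal peaks were tested, so 27 distal peaks have no test. A peak of Ncoa2 (chr1:13256160-13256636) fell from 6.89 ± 0.629 to 3.09 ± 0.353 CPM (counts of a peak scaled to a common library size; SD, n = 4) in KO vehicle libraries, a log2 change of -1.15 that was the lowest of 21 tested Ncoa2 peaks. Its log2 change was -1.04 with Dex and -1.32 with IL4, and its place relative to the floxed stretch was not analysed here. Of the 21 tested Ncoa2 peaks, 1 fell and 1 rose in KO against WT with vehicle. With Dex 2 fell and 1 rose, and with IL4 4 fell and 1 rose. Of the macrophage markers, 9 of 9 had a promoter peak, and their summed level moved with treatment in the same direction as the respiratory promoters described next. It was 299 CPM per kb with vehicle, 328 with Dex and 246 with IL4 in WT cells, and 288, 307 and 247 in KO cells (group means). Of the markers of neutrophils 2 of 5 had one (18.4 to 24.2 CPM per kb), of dendritic cells 2 of 4 (23.2 to 30.3), of B cells 2 of 4 (14.0 to 18.1), of T and NK cells 1 of 5 (4.67 to 6.44), of fibroblasts 1 of 4 (4.48 to 9.83) and of erythroid cells 1 of 3 (3.46 to 4.69). All of these are sums, which grow with the number of markers. As means of 24 libraries, Zbtb46 of dendritic cells stood at 18.3 and Camp of neutrophils at 17.6 CPM per kb. The macrophage markers Adgre1 and Fcgr1 stood at 18.9 and 15.7, and the other macrophage markers at 21.9 to 70.1. Flt3 of dendritic cells stood at 7.77 and Ltf of neutrophils at 4.58. The 1 fibroblast marker with a promoter peak, Pdgfrb, stood at 4.48 CPM per kb with vehicle and 9.83 with IL4 in WT cells, and at 5.75 and 9.06 in KO cells. The part of these marker levels in the changes with treatment was not tested.

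The respiratory promoters were among the more open promoters of these cells. Their median level in WT vehicle cells was 28.8 CPM per kb of peak, against 17.5 over all promoter peaks, and 45 of 62 lay above that median while 1 lay below the lower quartile of promoter peaks. The most open was that of Atp5g1, which encodes a copy of the c subunit of the ATP synthase rotor, at 97.0 ± 4.40 CPM per kb (SD, n = 4). The highest in the other roles were Ndufs8, an iron-sulfur core subunit of complex I (85.7 CPM per kb), Cox18, which helps insert a core subunit of complex IV (69.0), Ndufaf8, a complex I assembly factor (65.2), Ndufa13, an accessory subunit of complex I (53.7), Cox7c, a small subunit of complex IV (44.9), and Uqcrfs1, the Rieske iron-sulfur protein of complex III (25.3). The Ndufaf8 peak also spans the start of Tepsin. The peak assigned to Ndufa13 spans the start of Tssk6 and lies outside the RefSeq promoter sequence of Ndufa13. The next accessory promoter was that of Ndufa6 (49.5). The lowest was Cox6b2, an isoform known from testis, at 5.01 CPM per kb. Distal peaks were less open, with a median of 5.46 CPM per kb, and shorter, with a median length of 323.5 bases against 941 for the promoters. A promoter peak held a median of 285 counts per library and a distal peak 23, so the distal values are less precise.

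The respiratory promoters stood slightly higher with Dex and lower with IL4, in every role of the chain. The summed CPM of the 62 promoter peaks in WT vehicle libraries 1 to 4 was 1891, 1911, 1849 and 1834. In the WT Dex libraries it was 2024, 2126, 2057 and 1964, and in the WT IL4 libraries 1588, 1589, 1586 and 1634. The WT Dex libraries were all higher than the WT vehicle libraries, the WT IL4 libraries all lower, and the ranges of the 3 groups did not overlap. The KO vehicle libraries held 1739, 1844, 1867 and 1922, the KO Dex libraries 1840, 1971, 2040 and 2050, and the KO IL4 libraries 1582, 1577, 1581 and 1696. In KO cells the IL4 libraries were again all lower than vehicle, while KO Dex replicate 1 lay within the vehicle range. The share of all counts that fell in any promoter peak moved the same way, with 33.8 ± 0.208% in WT vehicle, 34.7 ± 0.618% in WT Dex and 30.2 ± 0.280% in WT IL4 libraries (SD, n = 4), and with 33.3 ± 0.770%, 34.2 ± 0.463% and 30.4 ± 0.497% in KO libraries. Within those promoter counts the respiratory promoters took 0.534% to 0.567% in the 24 libraries. Their share was 0.545 ± 0.00720% in WT vehicle, 0.557 ± 0.00786% in WT Dex and 0.542 ± 0.00671% in WT IL4 libraries (SD, n = 4). In KO libraries it was 0.556 ± 0.00793%, 0.560 ± 0.00561% and 0.547 ± 0.00957%. The part of the shift shared by all promoters in these sums was not tested.

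**Figure D1:**
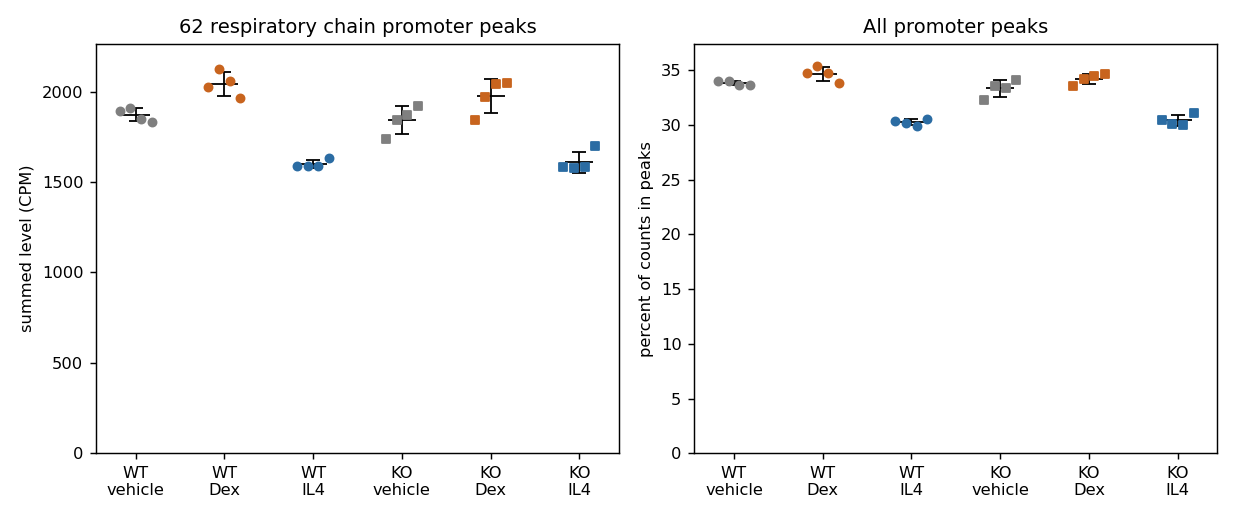
Summed TMM-scaled CPM of the 62 respiratory promoter peaks (left) and the percentage of each library's counts that fell in all promoter peaks (right), for each of the 24 libraries in the 6 groups of genotype and treatment. Points are libraries, with bars at the group mean ± SD (n = 4), and both axes start at 0; in both panels the IL4 libraries lie lowest, at 1577 to 1696 CPM in the left panel.

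Dex in WT cells raised the accessibility of 7 of the 62 respiratory promoters and lowered none. The 7 were at Ndufa9, Ndufaf4, Ndufs3, Ndufb3, Cox6b1, Ndufs5 and Atp5g3. Over all 13867 tested promoter peaks, 8.87% rose and 3.12% fell, so the share that rose (11.3% of 62) was near the background. All 62 log2 changes were above 0, from 0.01 to 0.35, with a median of 0.12 against 0.07 over all promoter peaks. In 18 of the 62 (29.0%) every Dex library was above every vehicle library, against 12.9% of all promoter peaks.

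By role, the promoters that rose with Dex were 3 of 22 among the accessory subunits of complex I (median log2 change 0.13), 1 of 5 among its core subunits (0.11) and 1 of 6 among its assembly factors (0.10). They were 1 of 12 among subunits of complex IV (0.13) and 1 of 9 among those of ATP synthase (0.15). None of 3 promoters of complex III (0.06) and none of 5 of complex IV assembly factors (0.11) was called.

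The peak of Ndufaf4, an assembly factor of complex I, lies at chr4:24897522-24898419 (sequence above). It held 20.8, 20.8, 22.0 and 22.8 CPM in WT vehicle libraries 1 to 4 and 27.3, 25.1, 26.6 and 26.6 CPM in WT Dex libraries. All Dex libraries were higher, and the log2 change was 0.30 (SE 0.08, adjusted p = 0.0045 by edgeR's quasi-likelihood test with Benjamini-Hochberg adjustment over all tested peaks, as are all adjusted p-values below). In KO cells it held 18.8, 22.8, 23.4 and 21.2 CPM with vehicle and 19.6, 23.7, 24.9 and 23.3 CPM with Dex, which overlap (log2 change 0.09, adjusted p = 0.521).

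The peak of Ndufs3, a core subunit of complex I, lies at chr2:90903541-90905110. It held 19.6, 18.3, 18.6 and 19.3 CPM in WT vehicle libraries and 22.9, 22.0, 22.6 and 23.4 CPM in WT Dex libraries. The groups did not overlap (log2 change 0.27, SE 0.09, adjusted p = 0.0219). In KO cells it held 15.5, 16.3, 18.6 and 17.7 CPM with vehicle and 18.8, 22.6, 18.9 and 22.7 CPM with Dex, again without overlap (0.30, adjusted p = 0.0119). It was the 1 promoter that rose with Dex in both genotypes.

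Ndufa9, an accessory subunit of complex I, had the highest log2 change of the 7, 0.35 (SE 0.13, adjusted p = 0.0393), at a low peak. It held 8.76, 9.84, 5.87 and 10.1 CPM with vehicle and 11.1, 12.4, 9.35 and 11.7 CPM with Dex in WT cells, and the groups overlapped. The other rises were at Ndufb3, an accessory subunit of complex I (0.27, adjusted p = 0.0275), Cox6b1, a subunit of complex IV on the intermembrane side (0.26, 0.0486), Ndufs5, an accessory subunit of complex I (0.25, 0.0093), and Atp5g3, another c subunit gene of ATP synthase (0.24, 0.0300).

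The count of 7 is not firm. It was 2 when libraries were scaled by total counts, by TMM factors taken from promoter peaks alone or by loess curves, and Ndufaf4 and Ndufs5 were the 2 called under each of these. It was 4 without WT vehicle replicate 2 or WT Dex replicate 1, 3 without WT vehicle replicate 3 or WT Dex replicate 2, 2 without WT Dex replicate 4, and 3 with DESeq2. Ndufaf4 and Ndufs5 were called whichever single library was left out. Ndufs3 was not called without WT vehicle replicate 2 or 3 or WT Dex replicate 4, and Ndufa9, Ndufb3, Cox6b1 and Atp5g3 each lost the call in at least 4 such fits.

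IL4 in WT cells lowered 38 of the 62 respiratory promoters and raised none. All 62 log2 changes were below 0, from -0.45 to -0.03, and all were smaller than 2-fold. Promoters as a class were lower with IL4: 43.0% of all tested promoter peaks fell and 6.27% rose. The median log2 change was -0.22 for the respiratory promoters and -0.21 over all promoter peaks. In 32 of the 62 (51.6%) every IL4 library lay below every vehicle library, against 41.3% of all promoter peaks.

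The falls were spread over the roles. They took in 13 of 22 promoters of complex I accessory subunits (median log2 change -0.20), 4 of 5 of its core subunits (-0.25) and 4 of 6 of its assembly factors (-0.23). They took in 2 of 3 promoters of complex III (-0.27), 6 of 12 of complex IV subunits (-0.18), 4 of 5 of complex IV assembly factors (-0.26) and 5 of 9 of ATP synthase (-0.21).

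**Figure D2:**
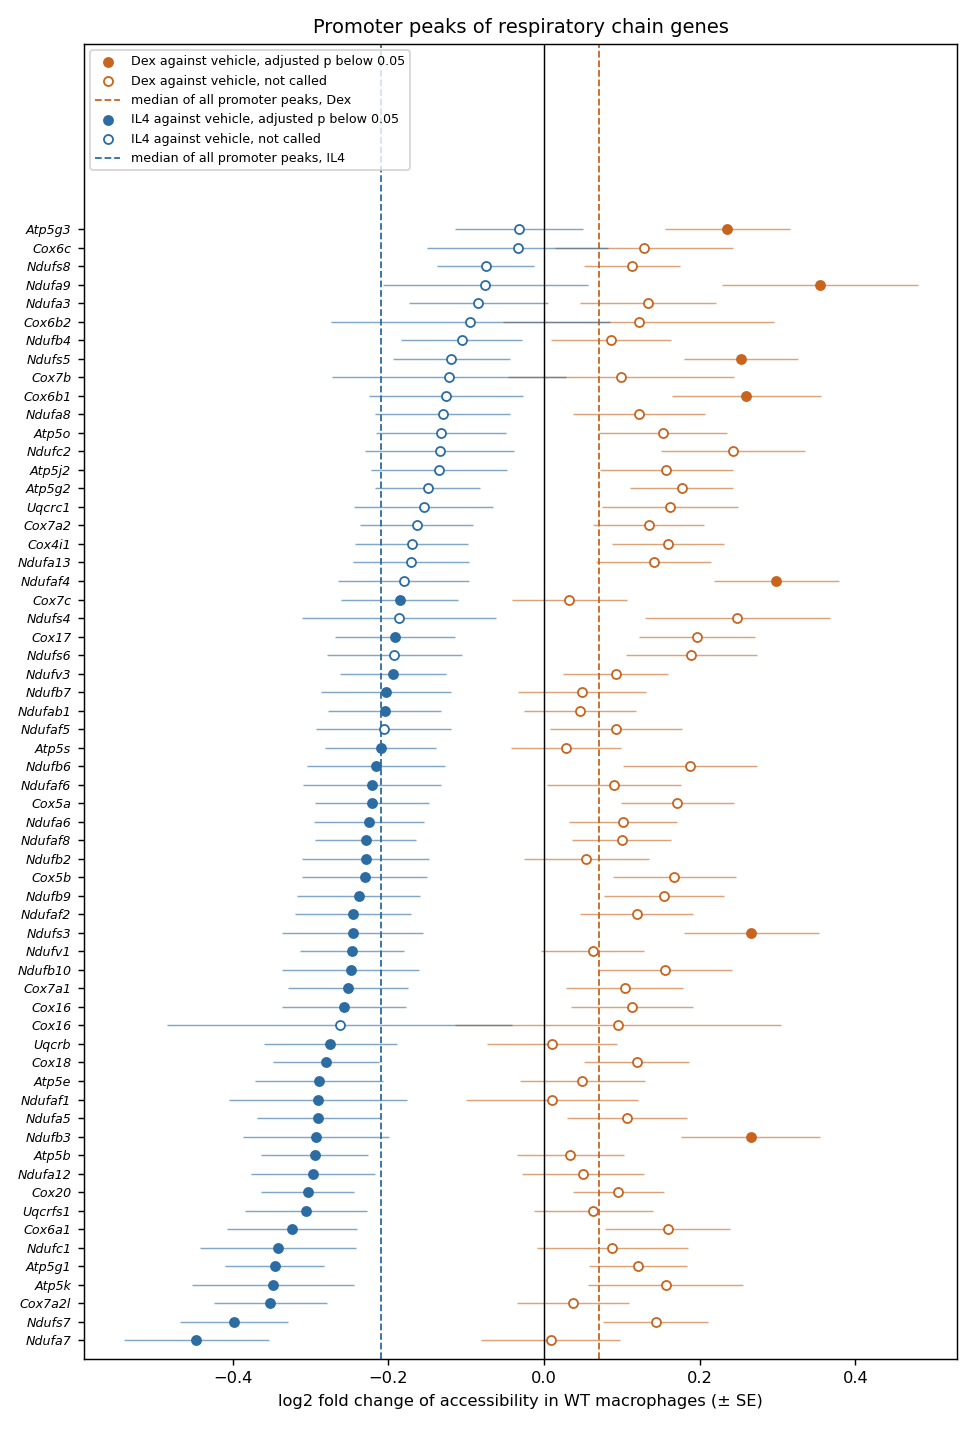
Log2 fold change (± SE) of 61 of the 62 respiratory promoter peaks with Dex and with IL4 against vehicle in WT cells, ordered by the IL4 change, with filled points at adjusted p below 0.05 and dashed lines at the medians of all promoter peaks. All Dex points lie above 0 and all IL4 points below 0.

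**Figure D3:**
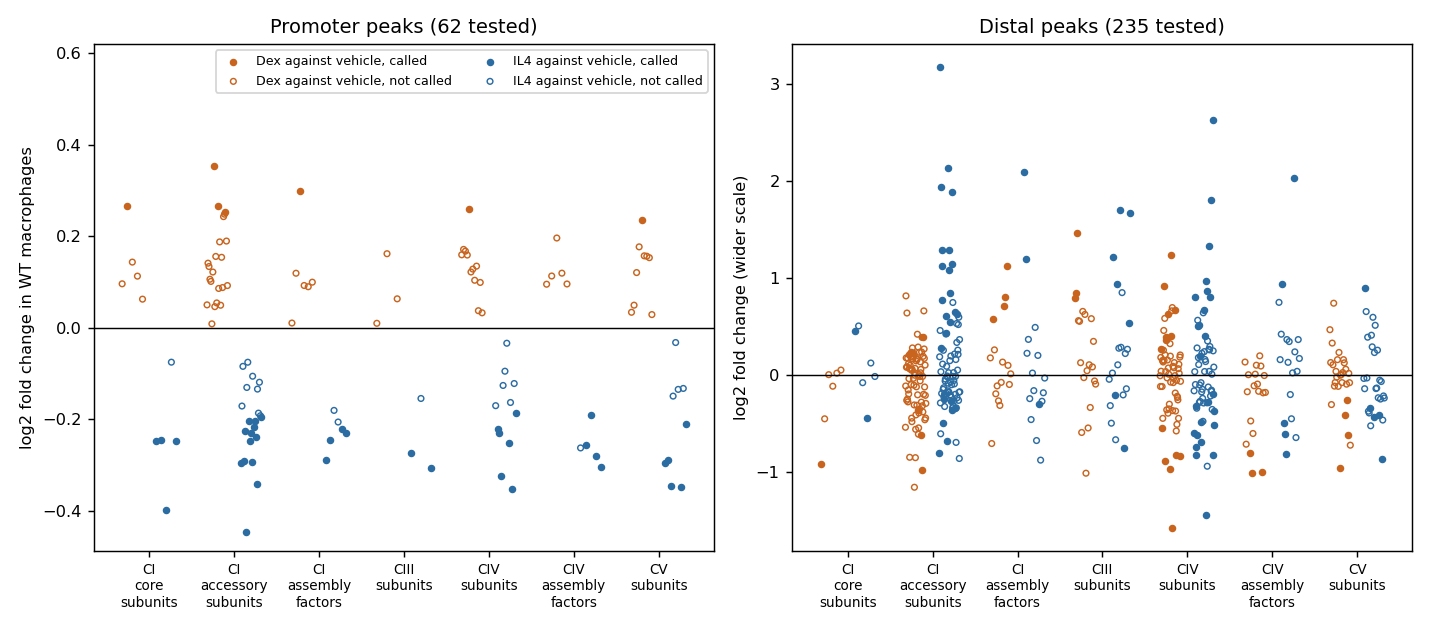
Log2 changes of the promoter peaks (left) and the distal peaks (right) by role in the respiratory chain, for Dex and IL4 against vehicle in WT cells, with filled points at adjusted p below 0.05 (CI, CIII, CIV and CV are the complexes). The left and right panels have separate vertical scales; promoter changes stay within -0.45 and 0.35, while distal ones reach 3.17.

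The peak of Ndufa7, an accessory subunit of complex I, had the deepest fall of the promoters and lies at chr17:33824240-33825061. It held 19.6, 20.0, 17.2 and 21.5 CPM in WT vehicle libraries and 13.5, 13.6, 13.3 and 17.3 CPM in WT IL4 libraries. IL4 replicate 4 overlapped the lowest vehicle library and the other IL4 libraries lay well below (log2 change -0.45, SE 0.09, adjusted p = 5.64e-05). In KO cells it held 16.4, 17.7, 21.7 and 19.1 CPM with vehicle and 13.5, 15.4, 15.1 and 15.7 CPM with IL4, without overlap (-0.31, adjusted p = 0.00642).

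Ndufs7, an iron-sulfur core subunit of complex I next to the ubiquinone site, has its peak at chr10:80248716-80249829. It held 45.2, 46.3, 44.7 and 43.2 CPM in WT vehicle libraries and 35.3, 35.3, 35.2 and 30.0 CPM in WT IL4 libraries, well apart (log2 change -0.40, SE 0.07, adjusted p = 1.87e-06). In KO cells the 4 vehicle libraries held 40.7, 42.5, 45.9 and 45.4 CPM and the IL4 libraries 31.7, 37.5, 37.8 and 33.8 CPM (-0.31, adjusted p = 0.000287). Dex did not move this peak past the threshold (0.14, adjusted p = 0.143).

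Cox7a2l, a factor of respiratory supercomplexes related to a complex IV subunit, has its peak at chr17:83513741-83514881. It held 43.8, 46.9, 43.5 and 43.4 CPM in WT vehicle libraries and 37.7, 35.2, 31.0 and 34.7 CPM in WT IL4 libraries, without overlap (log2 change -0.35, SE 0.07, adjusted p = 4.93e-05). The other falls of this size in WT cells were at Atp5k, a subunit of the membrane part of ATP synthase (-0.35), Atp5g1 (-0.35), Ndufc1, an accessory subunit of complex I (-0.34), Cox6a1, a subunit of complex IV (-0.32), Uqcrfs1 (-0.31), Cox20, a complex IV assembly factor (-0.30), and Ndufa12, an accessory subunit of complex I (-0.30). Atp5g1, the most open promoter of the family, went from 87.3, 92.2, 89.5 and 82.8 CPM to 71.0, 64.7, 71.2 and 70.3 CPM, and the groups did not overlap.

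The number of promoters that fell with IL4 depends on the scaling. With TMM factors taken from promoter peaks alone, which moved the median log2 change of all tested peaks from -0.01 to 0.19 and that of all promoter peaks from -0.21 to -0.00, 3 respiratory promoters fell (Ndufa7, Ndufs7 and Atp5g1), Ndufs8 rose (0.13, adjusted p = 0.0335), 28 changes were above 0 and 34 below, and the median was -0.01. With loess curves 6 fell and Ndufs8 again rose (0.19), with a median of -0.07, and with total counts 24 fell. Ndufa7 and Ndufs7 fell under every scaling tried. Without WT IL4 replicate 1 the count was 25, and the fall at Ndufc1 was not called without WT vehicle replicate 4.

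Set directly against each other in WT cells, IL4 libraries were lower than Dex libraries at 58 of the 62 respiratory promoters and higher at none. Over all promoter peaks 55.5% were lower and 7.1% higher. The median log2 difference was -0.35, against -0.28 over all promoter peaks, and all 62 were below 0. The widest differences were at Ndufb3 (-0.56, adjusted p = 1.33e-07), Ndufs7 (-0.54, 1.05e-10), Ndufs3 (-0.51, 4.63e-07), Atp5k (-0.50, 1.46e-05) and Cox6a1 (-0.48, 4.06e-07). By role, all 22 accessory, 5 core and 6 assembly promoters of complex I, all 3 of complex III and all 9 of ATP synthase were lower, as were 9 of 12 of complex IV subunits and 4 of 5 of its assembly factors. With TMM factors from promoter peaks alone 7 were lower, and with loess curves 18 were lower and 1 higher.

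In KO cells the medians had the same signs. With Dex, 3 promoters rose and none fell (6.86% and 2.47% of all promoter peaks): Ndufs3, the peak at the TSS of Cox16, a complex IV assembly factor (0.24, adjusted p = 0.0245) and Ndufv3, an accessory subunit of complex I (0.19, adjusted p = 0.0468). The median log2 change was 0.09, against 0.07 over all promoter peaks, with 56 above 0 and 6 below. With IL4, 26 promoters fell and none rose (36.2% and 5.64% of all promoter peaks), with a median of -0.21 against -0.17 and all 62 below 0. The deepest falls were at Ndufb3 (-0.44, adjusted p = 9.73e-05), Uqcrfs1 (-0.39, 4.86e-05), Cox4i1, the widely used isoform of a complex IV subunit (-0.38, 1.62e-05), Ndufaf6, a complex I assembly factor (-0.34, 0.002), and Ndufa7.

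Of the 38 promoters that fell with IL4 in WT cells, 21 were also called in KO cells, and all 38 had the same sign there. Every respiratory promoter had a negative log2 change with IL4 in KO cells, so that shared sign was bound to occur. Of the 7 that rose with Dex in WT cells, 1 was called in KO cells and all 7 had the same sign, which most respiratory promoters had there. Shared calls were not counted over all promoter peaks. A call in only 1 genotype does not show that the genotypes differ, and the tests of that difference are given further on. The KO counts moved with single libraries: promoters that fell with IL4 numbered 15 without KO vehicle replicate 4 and 17 without KO IL4 replicate 3, and 3 with promoter TMM factors. Promoters that rose with Dex numbered 0 without KO vehicle replicate 1 or KO Dex replicate 4, 1 without KO vehicle replicate 2 or 3 or KO Dex replicate 2 or 3, 6 without KO Dex replicate 1, 7 without KO vehicle replicate 4, and 0 with promoter TMM factors or loess curves. The fall of Ndufa7 in KO cells was not called without KO vehicle replicate 3 (adjusted p = 0.0546), and the rise of Ndufs3 was not called without KO vehicle replicate 1 or 2 or KO Dex replicate 2 or 4 (0.0575 to 0.0803).

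Distal peaks moved in both directions. With Dex in WT cells 17 of the 235 tested distal peaks rose and 17 fell, near the 9.08% and 9.03% of all distal peaks. With IL4, 40 rose (at 24 genes) and 31 fell (at 22 genes), against 21.7% and 13.6% of all distal peaks. With TMM factors taken from promoter peaks alone, 60 rose and 8 fell with IL4. Among the respiratory peaks, called changes of at least 2-fold with Dex or IL4 in WT cells were found only at distal peaks. With IL4 18 of the 235 rose and 1 fell by that much, against 9.32% and 1.61% of all distal peaks, and with Dex 3 rose and 2 fell, against 1.45% and 2.17%. Of the 262 distal peaks, 88 lie nearer the RefSeq TSS of another gene, and the median distance to the respiratory gene was 14.8 kb. Without the peaks nearer another TSS, 7 rose and 10 fell with Dex, and 26 rose and 19 fell with IL4. The number tested in this smaller set is not given here, so lower counts do not mean lower shares. The peaks that only distance ties to a respiratory gene are described below by position, with the gene they lie in where RefSeq gives one.

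**Figure D4:**
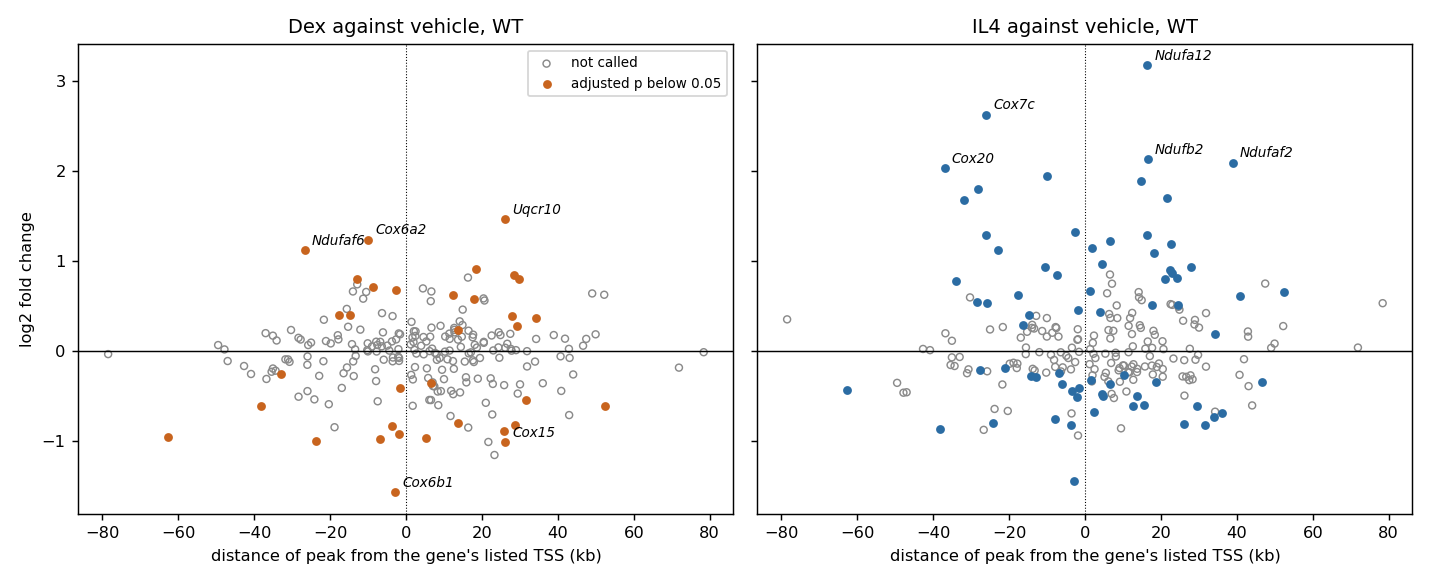
Log2 change of the tested distal peaks with Dex and with IL4 in WT cells against the signed distance from the TSS of the respiratory gene in kb, with filled points at adjusted p below 0.05. Called peaks lie on both sides of the TSS, and the highest IL4 change is that of Ndufa12 (3.17).

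Among distal peaks that opened with Dex, the one with the highest log2 change lies 26.2 kb after the TSS of Uqcr10, a small subunit of complex III, at chr11:4678068-4678259 inside Ascc2. It held 1.46, 1.01, 1.28 and 2.27 CPM in WT vehicle libraries and 3.66, 4.43, 4.35 and 4.39 CPM in WT Dex libraries. All Dex libraries were higher than all vehicle libraries (log2 change 1.46, SE 0.21, adjusted p = 4.76e-08). In KO cells it went from 0.995, 1.63, 1.57 and 1.65 CPM to 2.88, 3.37, 4.56 and 3.55 CPM (1.27, adjusted p = 4.23e-06). With IL4 it was not past the threshold in either genotype (-0.50 and -0.23). A neighbouring peak 28.3 kb after the same TSS also rose with Dex (0.85 in WT, 1.02 in KO).

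A peak 10.1 kb before the TSS of Cox6a2, the complex IV isoform of heart and skeletal muscle, held 1.92, 1.34, 1.28 and 1.24 CPM in WT vehicle libraries and 5.07, 2.95, 2.71 and 3.03 CPM in WT Dex libraries. Dex replicate 1 stood far above the others, and the groups did not overlap (log2 change 1.23, SE 0.22, adjusted p = 7.55e-06). In KO cells the change was 0.52 (adjusted p = 0.102).

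Ndufaf6 had 2 distal peaks that rose with Dex in both genotypes. The peak 26.7 kb before its TSS held 0.922, 0.671, 0.534 and 1.55 CPM with vehicle and 1.41, 2.58, 1.97 and 2.33 CPM with Dex in WT cells, which overlap in 1 library on each side (log2 change 1.12, SE 0.31, adjusted p = 0.00566, and 1.14 in KO, where the call was lost without KO vehicle replicate 2). The peak 12.8 kb before it is higher and went from 16.4, 18.7, 20.1 and 18.4 CPM to 27.9, 34.5, 31.6 and 34.5 CPM (0.80, SE 0.08, adjusted p = 7.38e-13, and 0.77 in KO). Its groups lay far apart, and with IL4 the same peak fell (-0.29 in both genotypes).

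Of the distal peaks that closed with Dex, that with the deepest log2 change lies 2.96 kb before the TSS of Cox6b1, at chr7:30629009-30629214 between genes. It held 3.00, 1.56, 1.17 and 1.44 CPM in WT vehicle libraries, 0.915, 0.369, 0.821 and 0.373 CPM with Dex, and 1.24, 0.644, 0.510 and 0.279 CPM with IL4. All Dex libraries were below all vehicle libraries, while IL4 replicate 1 overlapped them. The peak fell by 1.57 on the log2 scale with Dex (SE 0.32, adjusted p = 0.000114) and by 1.44 with IL4 (adjusted p = 0.000127). In KO cells it went from 1.74, 2.91, 2.09 and 2.75 CPM to 0.696, 0.688, 0.865 and 0.711 CPM with Dex and to 0.767, 0.982, 0.885 and 0.860 CPM with IL4 (-1.72 and -1.47). The promoter of the same gene rose with Dex in WT cells (0.26), where every respiratory promoter had a positive log2 change.

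A peak 26.2 kb after the TSS of Cox15, the heme A synthase needed for complex IV, lies at chr19:43726580-43727082 inside Entpd7. It held 7.91, 10.2, 10.3 and 9.89 CPM in WT vehicle libraries, 3.94, 3.32, 4.35 and 5.97 CPM with Dex and 4.55, 6.32, 5.51 and 4.94 CPM with IL4. Both treated groups lay wholly below vehicle (log2 change -1.01, adjusted p = 8.13e-09 with Dex, and -0.81, adjusted p = 5.34e-07 with IL4). In KO cells the changes were -0.56 and -0.58, both called. The effects of Dex and IL4 are set against the same vehicle libraries, so they are not independent.

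A peak 23.9 kb before the TSS of Cox20 held 0.999, 0.782, 1.71 and 1.34 CPM with vehicle and 0.704, 0.185, 0.492 and 0.700 CPM with Dex in WT cells, without overlap but at few counts (log2 change -1.0, adjusted p = 0.0336). The other falls with Dex named by size were 7.01 kb before Ndufc2 (-0.98), 5.12 kb after Cox6a2 (-0.97) and 62.8 kb before Atp5g3 (-0.95). The calls at Cox20 and 5.12 kb after Cox6a2 were lost with loess curves and with DESeq2. The Cox20 call was also lost without WT vehicle replicate 3 or 4 or WT Dex replicate 2 or 3, the Cox6a2 call without WT vehicle replicate 1, 2 or 4 or WT Dex replicate 2 or 4, and the Ndufc2 call without WT vehicle replicate 1 or 2 (adjusted p = 0.0573 and 0.0589).

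The widest gains with IL4 were at peaks nearly closed in vehicle cells. A peak inside Ndufa12, 16.3 kb after its TSS at chr10:94215244-94215373, held 0.230, 0.112, 0.214 and 0 CPM in WT vehicle libraries, 0.282, 0.554, 0.164 and 0.233 CPM with Dex, and 1.24, 1.17, 1.63 and 1.68 CPM with IL4. The IL4 libraries stood above all others (log2 change against vehicle 3.17, SE 0.50, adjusted p = 1.88e-07). In KO cells vehicle libraries held 0.497, 0.710, 0.131 and 0.458 CPM and IL4 libraries 1.06, 1.66, 1.33 and 1.72 CPM (1.56, adjusted p = 0.000877). The promoter of the same gene fell with IL4 in WT cells (-0.30).

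A peak between genes 26.0 kb before the TSS of Cox7c, at chr13:86072611-86072953, held 0.538, 0.559, 0.427 and 0.412 CPM with vehicle, 0.141, 0.369, 0.328 and 0.513 CPM with Dex and 3.06, 3.34, 2.85 and 2.89 CPM with IL4 in WT cells. IL4 libraries were far above the rest (log2 change 2.63, SE 0.30, adjusted p = 5.71e-12). In KO cells it went from 0.249, 0.213, 0.131 and 0.183 CPM with vehicle to 2.40, 3.25, 2.39 and 2.66 CPM with IL4 (3.71, SE 0.38, adjusted p = 6.05e-14). Against Dex in WT cells the difference was 3.07.

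A peak 16.5 kb after the TSS of Ndufb2, an accessory subunit of complex I, lies inside Braf. It held 0.538, 0.782, 0.534 and 0.412 CPM with vehicle and 2.15, 2.28, 3.06 and 2.61 CPM with IL4 in WT cells, without overlap (log2 change 2.13, SE 0.31, adjusted p = 1.96e-08, and 1.91 in KO). Further gains were found 38.9 kb after Ndufaf2, an assembly factor of complex I (2.09), 37.0 kb before Cox20 (2.03), 10.1 kb before Ndufa13 (1.94), 14.9 kb after Ndufb7, an accessory subunit of complex I (1.88), 28.3 kb before Cox7a2l (1.80) and 21.7 kb after Uqcrfs1 (1.70, and 2.16 in KO). A larger peak 31.8 kb before Uqcrfs1 went from 4.69, 5.36, 7.26 and 6.29 CPM to 20.0, 18.9, 18.0 and 17.3 CPM in WT cells (1.67, SE 0.12, adjusted p = 2.74e-22) and stayed far apart in KO cells (1.52). At Uqcrfs1, as at Ndufa12, Cox20 and Cox7a2l, the promoter fell in WT cells while a distal peak assigned to the gene rose. Every respiratory promoter had a negative log2 change with IL4, so this contrast in sign is not particular to these genes. None of these promoter falls was called with TMM factors taken from promoter peaks alone.

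**Figure D5:**
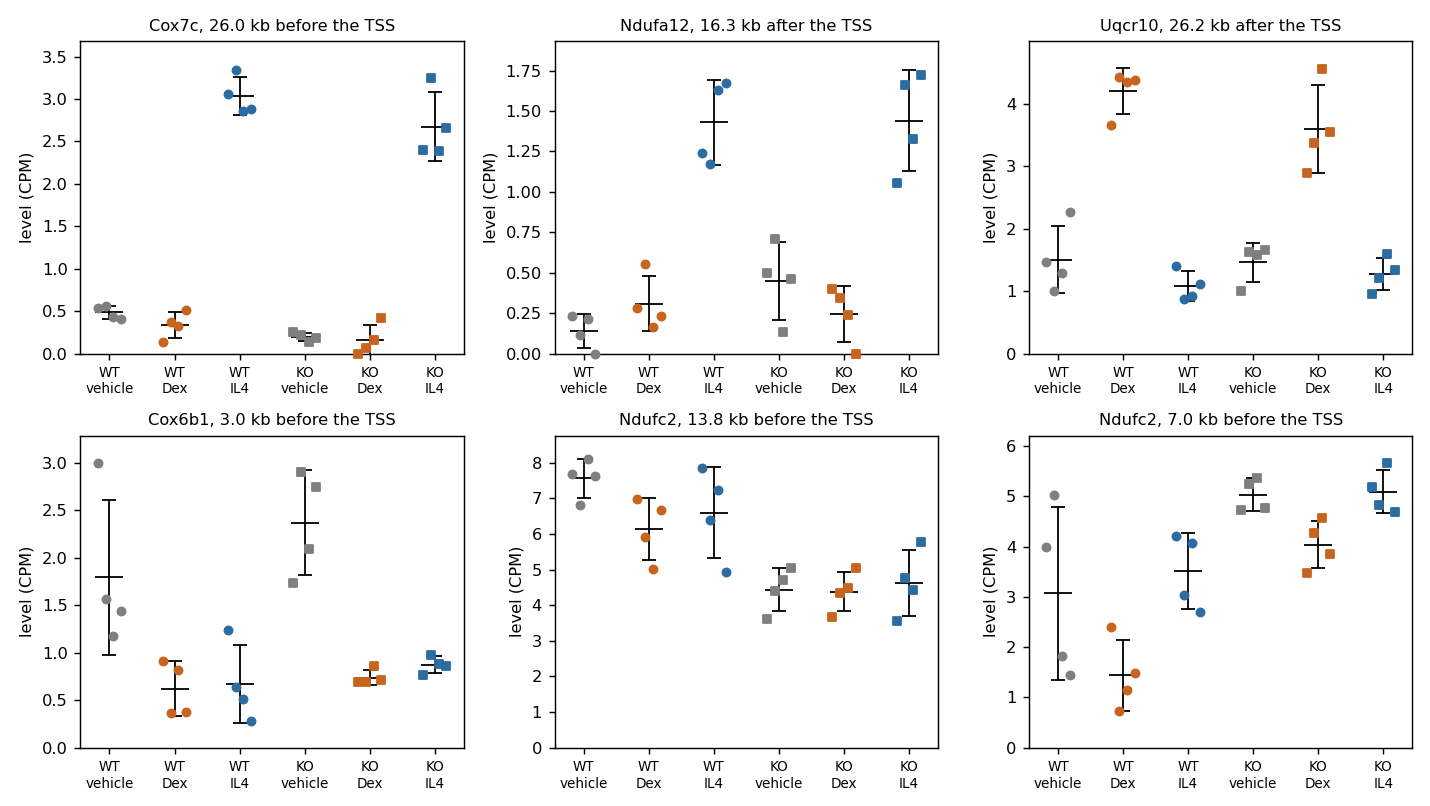
TMM-scaled CPM of 6 distal peaks in each of the 24 libraries, by genotype and treatment, each panel with its own axis from 0 and bars at the group mean ± SD (n = 4). IL4 libraries stand alone at the Cox7c and Ndufa12 peaks, Dex libraries at the Uqcr10 peak, and vehicle libraries are the highest groups at the Cox6b1 peak; the lower right panels show the Ndufc2 peaks that differed between genotypes.

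Falls with IL4 were smaller. Besides the peak before Cox6b1, a peak 38.3 kb before the TSS of Atp5o, a subunit of the stalk of ATP synthase, went from 4.15, 6.37, 8.12 and 8.97 CPM to 3.47, 3.63, 3.67 and 4.10 CPM in WT cells. The IL4 libraries were all lower, and the vehicle libraries were spread widely (log2 change -0.87, SE 0.17, adjusted p = 2.01e-05, and -0.52 in KO). A peak 31.5 kb after the TSS of Cox4i1 went from 6.30, 7.71, 8.44 and 9.17 CPM to 4.88, 5.09, 3.77 and 3.54 CPM, without overlap (-0.83, SE 0.15, adjusted p = 3.96e-06, and -0.71 in KO).

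By role, distal peaks at accessory subunits of complex I rose and fell with IL4 in 17 and 7 of 83, those at complex IV subunits in 12 and 13 of 63, those at complex III in 5 and 2 of 20, and those at ATP synthase in 1 and 4 of 28. At complex I assembly factors 2 rose and 1 fell of 16, at its core subunits 1 and 1 of 6, and at complex IV assembly factors 2 and 3 of 19. With Dex, 4 of 16 distal peaks at complex I assembly factors and 3 of 20 at complex III rose and none fell. At ATP synthase none rose and 4 fell, and at complex IV subunits 8 rose and 6 fell. At accessory subunits of complex I 2 rose and 3 fell, at its core subunits none rose and 1 fell, and at complex IV assembly factors none rose and 3 fell. These counts by role stand beside 9.08% of all distal peaks that rose and 9.03% that fell with Dex in WT cells. With IL4 the shares of all distal peaks were 21.7% and 13.6%. Of the 67 distal peaks assigned to complex IV subunits, tested or not, 15 lay at Cox4i2, 8 at Cox6a2, 4 at Cox8c and 2 at Ndufa4l2. Those isoforms have no promoter peak here. Differences between roles were not tested. Between IL4 and Dex libraries of WT cells, 49 distal peaks were higher with IL4 and 40 lower, against 25.9% and 18.8% of all distal peaks (87 and 14 with promoter TMM factors). The widest differences were at the peaks of Cox7c (3.07), Uqcrfs1 (2.71, 21.7 kb after the TSS), Ndufa12 (2.36), Cox7a2l (2.31, 28.3 kb before it) and Ndufb4, an accessory subunit of complex I (2.14, 16.4 kb after it).

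In KO cells distal peaks again moved both ways. With Dex 18 rose and 12 fell (7.47% and 7.4% of all distal peaks), and with IL4 37 rose and 30 fell (19.2% and 12.0%). With promoter TMM factors 9 rose and 16 fell with Dex, and 53 rose and 5 fell with IL4. Of the 40 distal peaks that rose with IL4 in WT cells 30 were called in KO cells and all 40 had the same sign, and of the 31 that fell 19 were called and all 31 had the same sign. Of the 17 that rose with Dex 10 were called in KO cells and 16 had the same sign, and of the 17 that fell 6 were called and all 17 had the same sign. Calls and signs shared by the genotypes were not counted over all distal peaks. The KO Dex rises numbered 11 without KO vehicle replicate 1 or 3 or KO Dex replicate 2, and the falls 6 without KO Dex replicate 4. A fall called with Dex in KO cells, 23.3 kb after Ndufb3 (-1.38, adjusted p = 0.0268), was -1.16 in WT cells (adjusted p = 0.113), and it was not called without KO vehicle replicate 3 or KO Dex replicate 2, 3 or 4. A peak 6.56 kb after Uqcrfs1 rose with IL4 in KO cells (1.78, adjusted p = 0.00257) and was at 0.85 in WT cells (adjusted p = 0.139).

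The isoforms known from particular tissues had few open promoters. Of Cox4i2, Cox6a2, Cox6b2, Cox7a1, Cox7b2, Cox8b, Cox8c and Ndufa4l2, a promoter peak was assigned to Cox6b2 and Cox7a1, and Cox7b2 and Cox8b had no peak. The promoter of Cox7a1, the isoform of heart and muscle, stood at 37.8 CPM per kb, above the family's median, and fell with IL4 in both genotypes (-0.25, adjusted p = 0.00622 in WT, and -0.27 in KO). Cox4i2, the isoform known from lung and low oxygen, had 15 distal peaks, most of them inside Bcl2l1. Near Cox8c, the testis isoform, a peak 3.73 kb before the TSS fell with both agents (-0.84 with Dex, -0.82 with IL4), and near Ndufa4l2, a paralog induced by low oxygen, the peaks 2.08 kb and 6.10 kb before the TSS fell with IL4 (-0.52 and -0.37).

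Few peaks of this family differed between KO and WT cells. No promoter peak was called between KO and WT under vehicle, Dex or IL4 by edgeR, with 1 of 62 at an unadjusted p below 0.05 in each comparison, and none was called with DESeq2. The median log2 difference of the promoters was -0.02 with vehicle, -0.04 with Dex and 0.02 with IL4. Of the 235 distal peaks 1 was called under each treatment, against 0.616%, 0.953% and 0.841% of all tested peaks, with 18, 21 and 25 at an unadjusted p below 0.05. The share of all peaks below that unadjusted p is not given here, so the unadjusted counts have no background.

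The peak that differed under vehicle lies 13.8 kb before the TSS of Ndufc2, an accessory subunit of complex I, at chr7:97385852-97386553 inside Alg8. It held 7.68, 6.82, 8.12 and 7.63 CPM in WT and 3.61, 4.40, 4.71 and 5.04 CPM in KO vehicle libraries. All KO libraries were lower (log2 difference -0.76, SE 0.15, adjusted p = 0.00102). With Dex WT libraries held 6.97, 5.91, 5.01 and 6.67 CPM and KO libraries 3.68, 4.33, 4.48 and 5.03 CPM (-0.49, adjusted p = 0.0804). With IL4 the difference was -0.50 (adjusted p = 0.0871), so it had the same sign under all 3 treatments.

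Another peak of Ndufc2, 7.01 kb before its TSS at chr7:97392705-97393278, differed under Dex. WT Dex libraries held 2.39, 0.739, 1.15 and 1.49 CPM and KO Dex libraries 3.48, 4.26, 4.56 and 3.85 CPM, without overlap (log2 difference 1.36, SE 0.24, adjusted p = 0.000334). Under vehicle the WT libraries were split, with 3.99, 5.03, 1.82 and 1.44 CPM against 4.72, 5.25, 5.36 and 4.77 CPM in KO libraries (0.69, adjusted p = 0.208). Under IL4 the difference was 0.55 (adjusted p = 0.312).

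Under IL4 a peak 34.3 kb after the TSS of Ndufaf6, at chr4:11041850-11042049 between genes, held 0.331, 0.293, 0 and 0.279 CPM in WT and 0.671, 1.06, 1.15 and 0.626 CPM in KO libraries. KO libraries were all higher (log2 difference 1.83, SE 0.48, adjusted p = 0.0336). These are few reads, and the call was lost with DESeq2 (adjusted p = 0.141), with loess curves (0.0653) and without WT IL4 replicate 1, 2, 3 or 4 or KO IL4 replicate 3 (0.0550 to 0.199). Without KO IL4 replicate 2 the peak was left out by the count filter.

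Whether the response to either agent differed between genotypes was tested as an interaction. None of the 62 promoter and 235 distal peaks was called for Dex or for IL4 by edgeR or by DESeq2, against 0.0% and 0.00231% of all tested peaks. At an unadjusted p below 0.05 there were no promoters and 13 distal peaks for Dex, and 1 promoter and 12 distal peaks for IL4. Here too the share of all peaks below that unadjusted p is not given. The peak inside Ndufa12 had an interaction of -1.61 with IL4 (SE 0.71, adjusted p = 1).

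At genes that work beside the chain, the called promoters in WT cells rose with Dex and fell with IL4, apart from Suclg1. The counts in these lists stand beside 8.87% of all promoter peaks that rose with Dex and 43.0% that fell with IL4 in WT cells. In complex II and the electron carriers (18 of 25 listed genes with a peak), 4 of 18 promoter peaks rose and none fell with Dex in WT cells, and 9 fell and none rose with IL4. Coq5, of coenzyme Q synthesis, had the widest Dex change (0.39), and Coq2, of the same pathway, the deepest fall with IL4 (-0.53). Of other assembly factors (21 of 30 genes), 4 of 19 promoter peaks rose with Dex and 14 fell with IL4, among them Uqcc1 of complex III assembly (-0.52), while Oxa1l, the inner membrane insertase, rose with Dex (0.30).

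Of regulators of mitochondrial biogenesis (14 of 20 genes), none of 13 promoter peaks was called with Dex and 8 fell with IL4 in WT cells, including Polg2, an accessory subunit of the mitochondrial DNA polymerase (-0.35), and Polrmt, the mitochondrial RNA polymerase (-0.34). In KO cells the promoters of Ppargc1b, a coactivator of respiratory genes (0.36), and Yy1, a transcription factor (0.24), rose with Dex. With IL4 in KO cells 7 fell and 1 rose, which was Ppargc1b again (0.23, adjusted p = 0.0417), named after its value was seen. Distal peaks of Ssbp1, which binds single-stranded mitochondrial DNA, rose with IL4 in WT cells by 3.15 and 3.14, and one of Ppargc1b by 1.91. Of the 79 tested distal peaks of this list, 14 rose and 13 fell with IL4 in WT cells (median log2 change -0.0159). Among all distal peaks 21.7% rose and 13.6% fell. In the tricarboxylic acid cycle (14 of 17 genes), 2 of 15 promoter peaks rose with Dex in WT cells, and with IL4 11 fell and 1 rose. The one that rose was Suclg1, a subunit of succinyl-CoA ligase (0.35), and it also had a distal peak that rose by 2.37. Of the 60 tested distal peaks of that cycle's genes, 15 rose and 4 fell with IL4 in WT cells. The lists were chosen with earlier results of these data known.

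Another family of nuclear genes for mitochondria, treated by the same rule, gives a scale for these counts. Of 55 promoter peaks of mitochondrial ribosomal protein genes 2 rose with Dex (median log2 change 0.11), and with IL4 29 fell and none rose (median -0.21). The 23 promoter peaks of respiratory genes that the rule left out gave 5 rises and no fall with Dex (median 0.13), and 11 falls and no rise with IL4 (median -0.18). The difference between these sets was not tested.

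Promoters with and without a motif were also counted apart. With IL4 in WT cells 3 of 8 promoters with the NRF1 letters fell against 27 of 44 without, 4 of 9 with the YY1 letters against 26 of 43, and 9 of 12 with the ETS letters against 21 of 40. Median log2 changes were -0.19 and -0.23 for NRF1, -0.19 and -0.22 for YY1 and -0.25 and -0.20 for ETS. No test was made of these splits.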

How the data were processed

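ATAC-seq was read in 24 libraries of mouse bone marrow-derived macrophages, 4 in each of 6 groups taken from the sample titles. The authors deposited read counts per peak for 144411 peaks, as whole numbers without normalisation. They also deposited a table for 71942 peaks with a gene, a distance and the authors' log2 fold changes in 9 comparisons. Per the submitters' processing notes, the mm10 build and the tools edgeR, featureCounts, MACS2, SAMtools, Bowtie2 and fastp were used. Their roles and versions, and whether peaks were called per library or on pooled libraries, are not known here. Column names abbreviate vehicle as C, which was matched to the titles.

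The tests were made with edgeR 4.0.16 in R 4.3.3. The filterByExpr step kept 130103 peaks with enough counts, and libraries were scaled by TMM factors of 0.935 to 1.07. All 24 libraries entered one robust quasi-likelihood fit with 6 group means, from which 10 comparisons were drawn as F tests. P-values were adjusted by Benjamini-Hochberg over all tested peaks, and calls were made below 0.05. Standard errors are the log2 change over the square root of F, without its sign. Levels are TMM-scaled CPM, divided by peak length in kb where levels of different peaks are compared. The fit was tested first on simulated counts in which few peaks changed, as many up as down. That simulation does not test the scaling where many promoters shift together. The authors' log2 values served as a check of scale, with a slope of 1.00 against those computed here. Alternatives were other scalings, no count filter, the groups of a comparison alone, DESeq2 1.42.0, the replicate number as a block, other definitions of the members and leaving out each library. Python 3.11.15 with pandas 2.3.3 and matplotlib 3.10.9 made the summaries and figures.

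The members and all gene lists were chosen with earlier results of these data known. Peaks were named by a rule: for Dex and IL4 in WT cells the up to 10 promoter and 10 distal called peaks with the largest log2 changes, for the other comparisons up to 5 of each, the peaks of isoforms restricted to some tissues, the promoter with the highest level per length in each role, and up to 3 called genes of each further list. Library values were given for the up to 3 largest changes in each direction and for peaks called between genotypes. Further peaks (the one 12.8 kb before Ndufaf6, the promoters of Ndufs8 and Cox6b2, and the library values of Atp5g1 and Uqcrfs1) were chosen after their values were seen. Motif letters were searched in RefSeq promoter sequences of GRCm38.p6. Sequences of distal peaks were not used here. Some genes are counted but not reported here by name.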

Additional observations from a re-analysis of the deposited data

Results flagged for a closer look

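In 144 groups of 4 libraries, the highest or lowest library was set against the rest by Dixon's criterion, which chance alone meets in about 1 in 20 groups, and 13 stood apart. The summed CPM of the respiratory promoters was highest in replicate 4 of both IL4 groups, with 1634 in WT IL4 replicate 4 (1586 to 1589 in the others) and 1696 in KO IL4 replicate 4 (1577 to 1582 in the others).

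Among promoters, Ndufa7 held 17.3 CPM in WT IL4 replicate 4 (others 13.3 to 13.6), Ndufs7 held 30.0 CPM in the same library (others 35.2 to 35.3), and Cox7a2l held 46.9 CPM in WT vehicle replicate 2 (others 43.4 to 43.8). WT IL4 replicate 4 was thus the highest of its group at Ndufa7 and the lowest at Ndufs7.

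Among distal peaks, the one 26.2 kb after Uqcr10 held 3.66 CPM in WT Dex replicate 1 (others 4.35 to 4.43) and 0.995 CPM in KO vehicle replicate 1 (others 1.57 to 1.65). The peak 10.1 kb before Cox6a2 held 1.92 CPM in WT vehicle replicate 1 (others 1.24 to 1.34) and 5.07 CPM in WT Dex replicate 1 (others 2.71 to 3.03). The peak 2.96 kb before Cox6b1 held 0.865 CPM in KO Dex replicate 3 (others 0.688 to 0.711). The peak 26.2 kb after Cox15 held 7.91 CPM in WT vehicle replicate 1 (others 9.89 to 10.3) and 4.95 CPM in KO Dex replicate 2 (others 5.87 to 5.98). The peak 34.3 kb after Ndufaf6 held 0 CPM in WT IL4 replicate 3 (others 0.279 to 0.331).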

How the results depend on the processing

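Of 68 named results (47 peaks, some in several comparisons), 42 kept their direction and call under every alternative run for them, 26 lost the call under at least 1, and none turned its direction. Counts of calls moved with the scaling and with which peaks were taken as members, at promoter and at distal peaks. The cause was not tested.

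Scaling by total counts, by TMM factors from promoter peaks and by loess curves gave, for promoters that rose with Dex in WT cells (7), 2, 2 and 2, with medians of 0.0636, 0.0503 and 0.0542 in place of 0.12. For Dex in KO cells (3 rises) they gave 1, 0 and 0, with medians of 0.0413, 0.0241 and 0.0169 in place of 0.09. Promoters that fell with IL4 in WT cells (38) numbered 24, 3 and 6, with medians of -0.16, -0.0126 and -0.0701 in place of -0.22. With promoter TMM factors and loess curves, the falls in KO cells (26) numbered 3 and 5, with medians of -0.0334 and -0.0791, and 1 promoter rose in each genotype under each. In IL4 against Dex the falls (58) numbered 7 and 18, 1 promoter rose with loess curves, and the medians were -0.23 with total counts, -0.07 and -0.12. Promoter TMM factors also gave 8 and 5 distal falls with IL4 in WT and KO cells (31 and 30), 87 distal rises and 14 falls in IL4 against Dex (49 and 40), and 9 distal rises with Dex in KO cells (18), against 11 with total counts.

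DESeq2 gave 3 promoter rises and 11 distal rises with Dex in WT cells, and 1 promoter rise and 7 distal falls in KO cells. Fitting only the groups compared gave 3 promoter rises with Dex in WT cells. Leaving out the 3 WT libraries numbered 1 together, chosen after seeing the data, gave 4 promoter rises with Dex and 23 promoter falls with IL4.

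Taking only peaks that the authors' table names, the promoter rises with Dex were 3 in WT and 1 in KO cells, and the promoter falls with IL4 in KO cells 15. Distal rises and falls were then 6 and 10 for Dex in WT, 26 and 14 for IL4 in WT, 28 and 18 for IL4 against Dex, and 7 and 6 for Dex in KO cells, with 14 falls for IL4 in KO cells. Without peaks nearer another TSS (added after seeing the data), they were 7 and 10, 26 and 19, 32 and 19, and 8 and 7. Both sets hold fewer peaks than the full set, so lower counts do not mean lower shares. Adding the 23 promoter peaks placed by RefSeq gave 12 promoter rises with Dex in WT cells.

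Leaving out 1 library at a time gave 2 to 6 promoter rises with Dex in WT and 0 to 7 in KO cells, 25 to 36 promoter falls with IL4 in WT and 15 to 36 in KO cells, and 11 to 18 distal rises and 6 to 12 distal falls with Dex in KO cells. KO against WT (1 call per treatment) gave 1 to 3 with vehicle, 1 to 2 with Dex and 0 to 2 with IL4. With vehicle it was 2 with loess curves, and with Dex and IL4 it was 2 without the count filter, as with vehicle. Without the 3 WT libraries numbered 1 it was 2 with vehicle and with Dex. With IL4 it was 0 with loess curves, with the groups alone, with DESeq2, in the authors' table peaks and in structural subunits alone. The interactions gave 0 calls in every setting.

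The labels do not say that equal replicate numbers share a mouse or day. Of 60 pairs of equal number 9 had deviations that correlated above 0.1 (-0.067 to 0.202), while 23 of 24 libraries correlated best with a library of their own number, which is a hint from the data. All 9 pairs joined libraries of the same genotype, and pairs across genotypes reached 0.0268 at most. The replicate block gave equal numbers of both genotypes a shared term, so it did not model a link within each genotype. With that block, promoter rises with Dex were 7 in WT and 4 in KO cells, promoter falls with IL4 39 and 26, and calls of KO against WT with vehicle 3.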
